A study of Saccharomyces cerevisiae with 10 samples.

Results

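The genes of de novo purine synthesis, named ADE for the adenine requirement of their mutants, encode the enzymes that build purine nucleotides from small precursors. The 10 genes described here are ADE1 (YAR015W), ADE2 (YOR128C), ADE4 (YMR300C), ADE5,7 (YGL234W), ADE6 (YGR061C), ADE8 (YDR408C), ADE12 (YNL220W), ADE13 (YLR359W), ADE16 (YLR028C) and ADE17 (YMR120C), out of 6212 open reading frames listed on the arrays. They were chosen by open reading frame identifier and enzyme function, after the log ratios of these same arrays were known. The log ratios over wild type (wt) that drew attention to the genes are therefore given as a description, with no test. All 10 had a value on all 10 arrays, so no member was lost to a missing spot.

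Purine rings are assembled stepwise on the ribose of phosphoribosyl pyrophosphate (PRPP) until inosine monophosphate (IMP) is reached, which is then turned into AMP or GMP. In budding yeast the genes of this route are activated together by the transcription factor Bas1 with its partner Pho2, an activation promoted by late intermediates of the pathway and repressed when adenine is plentiful. Bas1 and Pho2 also act on genes of glycine cleavage and folate metabolism, which supply the formyl groups of the ring, and Pho2 has a separate partner, Pho4, at genes of phosphate uptake.

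The study compared 5 mutant strains of Saccharomyces cerevisiae, ptc1, ptc2, ptc3, ptc4 and ptc5, with a wt strain. Each PTC gene encodes a type 2C protein phosphatase, an enzyme that removes phosphate from serine and threonine. All strains were in logarithmic growth in YPD, a rich medium, at 28 °C, and were collected at an absorbance of 0.6 to 0.8 at 660 nm; neither the mutant alleles nor the strain background are given in the sources used here. Mutant and wt RNA were hybridised together on 2 two-colour arrays for each mutant, with the mutant in Cy5 on array 1 and in Cy3 on array 2.

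Each value is the logarithm of the mutant signal divided by the wt signal. It is read here as log2, although the base is not stated; were it the natural logarithm, every fold given would be too small. As the design names 6 RNA samples and 10 dye-swapped arrays, both arrays of a strain were counted as technical repeats of a single extract. The SD beside a mean is over those 2 arrays, and no single mutant has a replicate test against wt. All 5 comparisons share the wt RNA, so a deviation of that extract would move all of them, and such a deviation cannot be told apart from a change common to the mutants. Precision is limited by this small number of arrays. PTC1, PTC3 and PTC5 lay between −8.79 and −1.86 on the arrays of their own mutants, PTC2 was at −7.86 on the 1 ptc2 array that measured it, and PTC4 had no value in ptc4, so that strain's label could not be checked in this way. Medians over all genes lay between −0.03 and 0.04 on 9 arrays and at 0.23 on the second ptc2 array.

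ADE transcripts were below wt in all 5 mutants when summarised by their median, and lowest in ptc4 and ptc5. In ptc4 the median log2 ratio of the 10 genes was −0.51 over the gene means, with array medians of −0.46 and −0.48, a level 1.42-fold below wt, against a median of 0.0050 over all 4152 genes measured on both arrays. RNA came from whole cultures, so fewer cells expressing a gene and less RNA per cell cannot be told apart. In ptc5 the ADE median was −0.45, with array medians of −0.39 and −0.55, against 0.02 over all genes. It was −0.31 in ptc1, with array medians of −0.295 and −0.31, against −0.03 over all genes.

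The medians of ptc3 and ptc2 were nearer to wt and less certain. In ptc3 the ADE median was −0.24, with array medians of −0.35 and −0.21, against 0.0030 over all genes. In ptc2 it was −0.22, against 0.12, and the mean over the 10 genes was −0.11. The ptc2 arrays gave −0.32 and −0.05, the second being the array with the raised median. Relative to each array's own median, the ADE genes lay at −0.34 in ptc2, between ptc1 at −0.29 and ptc5 at −0.47, so the place of ptc2 in the order depends on the centring. As deposited, in the order from ptc4 through ptc5, ptc1 and ptc3 to ptc2, the ranges of the 2 array medians overlapped between all neighbours except ptc5 and ptc1.

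**Figure D1:**
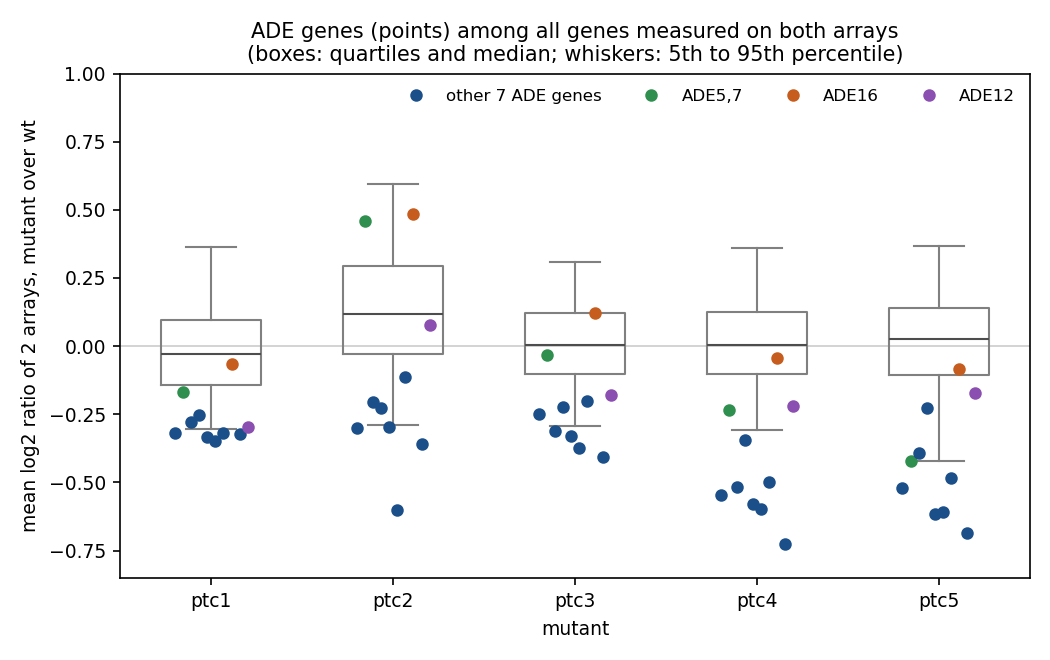
Mean log2 ratio of mutant over wt for each ADE gene (points) beside all genes measured on both arrays of the mutant (boxes with quartiles and median, whiskers from the 5th to the 95th percentile). Coloured points mark ADE16, ADE5,7 and ADE12. The other 7 ADE genes lie below the median of all genes in every mutant. ADE16 lies above it at 0.49 ± 0.53 (SD, n = 2 arrays) in ptc2 and at 0.12 in ptc3.

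Direction was shared by most members within a mutant, but few were far from wt. Members below 0 on both arrays numbered 9 of 10 for ptc1, 6 for ptc2, 7 for ptc3, 9 for ptc4 and 10 for ptc5. Of all genes measured on both arrays, the share below 0 on both was 34.2% for ptc1, 14.6% for ptc2, 26.6% for ptc3, 23.4% for ptc4 and 23.3% for ptc5. These are the values that chose the genes, and nothing is read from the contrast.

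By size, ADE17 in ptc4 was the only member at least 1.5-fold below wt on both arrays of a mutant. This rule took as lower 0.108% of all genes for ptc1, 1.08% for ptc2, 0.342% for ptc3, 0.65% for ptc4 and 1.41% for ptc5. When the mean had to reach 1.5-fold with both arrays of the same sign, ADE1 passed in ptc2, ADE1 and ADE17 passed in ptc4, and ADE1, ADE2 and ADE17 passed in ptc5, with none in ptc1 or ptc3. The share of all genes taken as lower by that rule was 0.217% for ptc1, 1.44% for ptc2, 0.502% for ptc3, 1.06% for ptc4 and 2.36% for ptc5. As above, the same values chose the genes. Within each mutant between 6 and 9 of the 10 genes lay in the lowest 10% of all genes by their mean.

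The first step of the pathway is catalysed by the product of ADE4, the amidotransferase that commits PRPP to purine synthesis. Its log2 ratio was −0.29 and −0.35 on the ptc1 arrays, −0.53 and −0.08 in ptc2, −0.38 and −0.12 in ptc3, −0.61 and −0.49 in ptc4, and −0.50 and −0.54 in ptc5. The ptc4 and ptc5 means lay furthest below wt, with values of −0.55 ± 0.08 and −0.52 ± 0.03 (SD, n = 2 arrays). The single arrays of ptc2 spanned most of the range seen over all mutants.

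ADE5,7 encodes a bifunctional enzyme with glycinamide ribotide synthetase and aminoimidazole ribotide synthetase activities, and it was the least reproducible member. It was at −0.21 and −0.13 in ptc1, 0.11 and 0.81 in ptc2, 0.46 and −0.52 in ptc3, −0.33 and −0.14 in ptc4, and −0.28 and −0.56 in ptc5. The ptc3 arrays disagreed in sign, with an SD of 0.69 that was larger than that of 98.7% of all genes in that mutant. In ptc2 the mean was 0.46 ± 0.50, or 0.33 relative to the array medians, and no direction can be given for this gene in ptc2 or ptc3 beyond the spread of the arrays.

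ADE8 encodes the transformylase that adds the first formyl group. Its values were −0.15 and −0.40 in ptc1, −0.23 and −0.18 in ptc2, −0.33 and −0.29 in ptc3, −0.36 and −0.68 in ptc4, and −0.18 and −0.60 in ptc5. Every one lay below wt, and the means ran from −0.20 ± 0.03 in ptc2 to −0.52 ± 0.22 in ptc4. In the order of their means, from ptc4 through ptc5, ptc3 and ptc1 to ptc2, the array ranges of all neighbouring mutants overlapped.

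ADE6, for the formylglycinamidine ribotide synthetase that follows, showed the smallest spread of means between mutants. It was at −0.13 and −0.38 in ptc1, −0.25 and −0.20 in ptc2, −0.53 and 0.08 in ptc3, −0.22 and −0.48 in ptc4, and −0.21 and −0.24 in ptc5. The 5 means lay between −0.35 and −0.22, with an SD of 0.05 over mutants, below the SD between arrays in 3 of them. Array 2 of ptc3 gave the 1 value above wt.

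ADE2 and ADE1 encode the carboxylase and the succinocarboxamide synthetase that act in succession late in the ring's assembly; loss of either lets a red pigment form in yeast colonies. ADE2 was at −0.30 and −0.36 in ptc1, −0.57 and −0.02 in ptc2, −0.37 and −0.29 in ptc3, −0.67 and −0.49 in ptc4, and −0.52 and −0.71 in ptc5. ADE1 was at −0.38 and −0.32 in ptc1, −0.68 and −0.52 in ptc2, −0.41 and −0.34 in ptc3, −0.58 and −0.62 in ptc4, and −0.52 and −0.70 in ptc5. For ADE1 the ranges of ptc1 and ptc3 overlapped, those of ptc2, ptc4 and ptc5 overlapped, and no array of the first pair reached those of the other mutants.

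In ptc2, the mean of ADE1 lay apart from most of the pathway. There its mean was −0.60 ± 0.12, a level 1.52-fold below wt and the lowest of the 10 genes in that mutant, while the ADE median was −0.22. On the first ptc2 array ADE1 was at −0.68, near ADE17 at −0.58, ADE2 at −0.57 and ADE4 at −0.53. The second ptc2 array, which raised most members, still gave −0.52 for ADE1. In ptc2 it lay lower than all but 1.22% of the 4086 genes measured on both arrays.

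**Figure D2:**
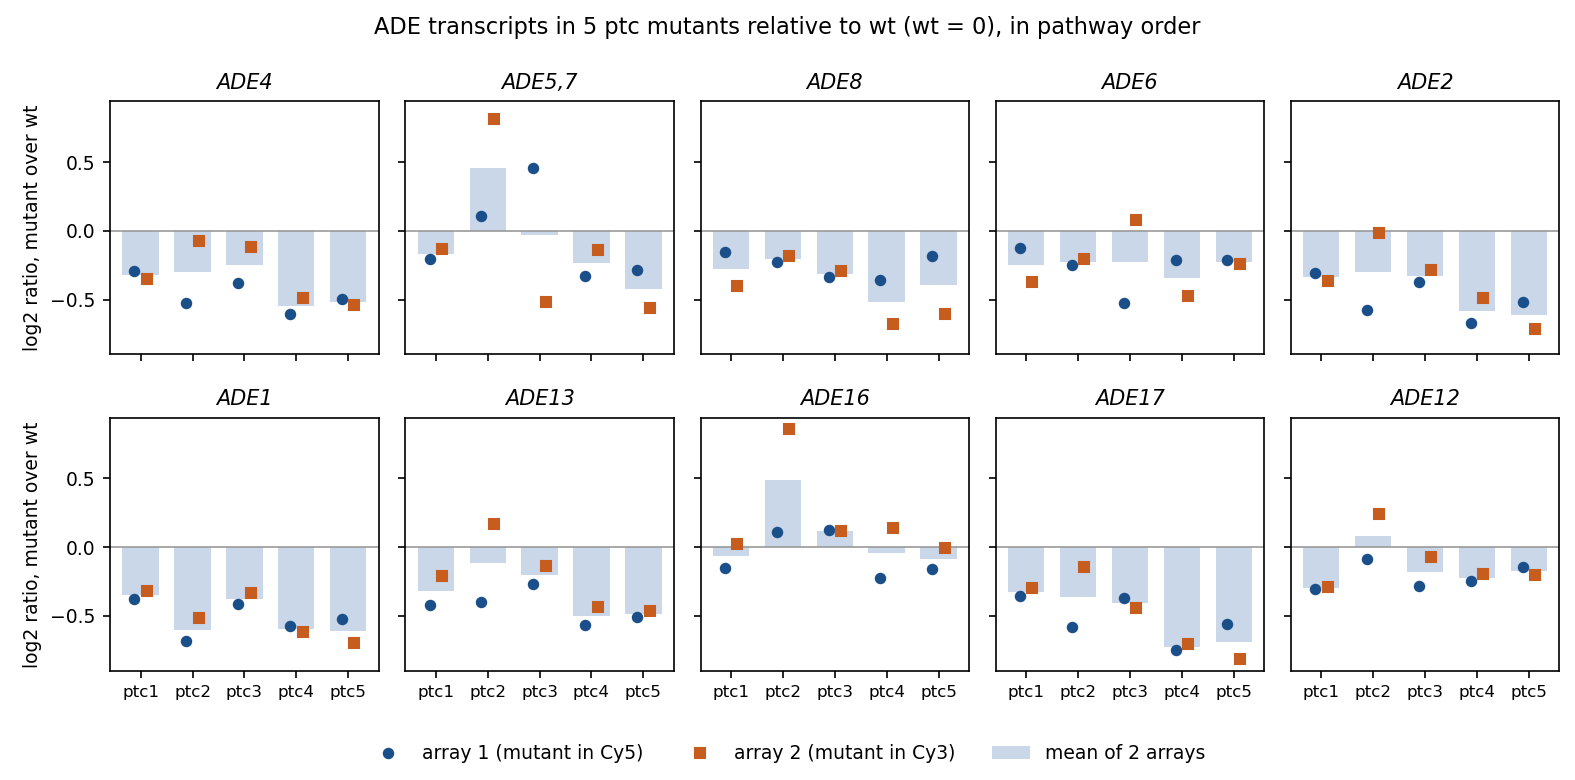
Log2 ratio of mutant over wt for each ADE gene in pathway order, with array 1 as circles, array 2 as squares and their mean as bars, and with wt at 0. ADE1 and ADE17 are below 0 on every array, ADE5,7 has arrays on opposite sides of 0 in ptc3, and the second ptc2 array is the higher of the pair for all 10 genes.

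ADE13 encodes adenylosuccinate lyase, which acts both before IMP and again in the branch to AMP, and ADE12 encodes adenylosuccinate synthase of that branch. ADE13 was at −0.42 and −0.21 in ptc1, −0.40 and 0.17 in ptc2, −0.27 and −0.13 in ptc3, −0.56 and −0.43 in ptc4, and −0.50 and −0.46 in ptc5. Its lowest means were again in ptc4, −0.50 ± 0.09, and ptc5, −0.48 ± 0.03. Relative to the raised median of its array, the second ptc2 value was also below 0.

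ADE12 behaved otherwise. Its values were −0.30 and −0.29 in ptc1, −0.09 and 0.24 in ptc2, −0.28 and −0.08 in ptc3, −0.25 and −0.20 in ptc4, and −0.14 and −0.20 in ptc5. Relative to the array medians its ptc2 mean was −0.05, with arrays at −0.11 and 0.01. Its lowest mean was in ptc1, at −0.30 ± 0.01, and not in ptc4 or ptc5, where each of the other 9 members had its lowest. In ptc5 it lay above 17.5% of all genes, within the bulk of the distribution.

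The final steps to IMP are carried out by a pair of isozymes, the products of ADE16 and ADE17, and these genes were at opposite ends of the pathway's range. ADE17 was at −0.35 and −0.30 in ptc1, −0.58 and −0.14 in ptc2, −0.37 and −0.44 in ptc3, −0.75 and −0.71 in ptc4, and −0.56 and −0.82 in ptc5. ADE16 was at −0.15 and 0.02 in ptc1, 0.11 and 0.86 in ptc2, 0.13 and 0.11 in ptc3, −0.22 and 0.14 in ptc4, and −0.16 and −0.0040 in ptc5. ADE17 had the lowest mean of all members in ptc3, ptc4 and ptc5, while ADE16 had the highest in each of the 5 mutants. In ptc2 the ADE16 mean was 0.49 ± 0.53, or 0.36 relative to the array medians. No direction can be given for it there beyond the spread of the arrays. ADE5,7 was nearly as high in ptc2, at 0.46.

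Within a single array the ratio of ADE17 was below that of ADE16 on 10 of 10 arrays, by between 0.20 and 0.998 on the log2 scale. The difference of ADE17 minus ADE16 was −0.26 ± 0.09 for ptc1, −0.84 ± 0.22 for ptc2, −0.53 ± 0.04 for ptc3, −0.69 ± 0.22 for ptc4 and −0.60 ± 0.29 for ptc5 (SD, n = 2 arrays). Centring an array shifts both genes equally and leaves this difference as it is. The 2 genes are similar in sequence and may share hybridisation, which was not tested.

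**Figure D3:**
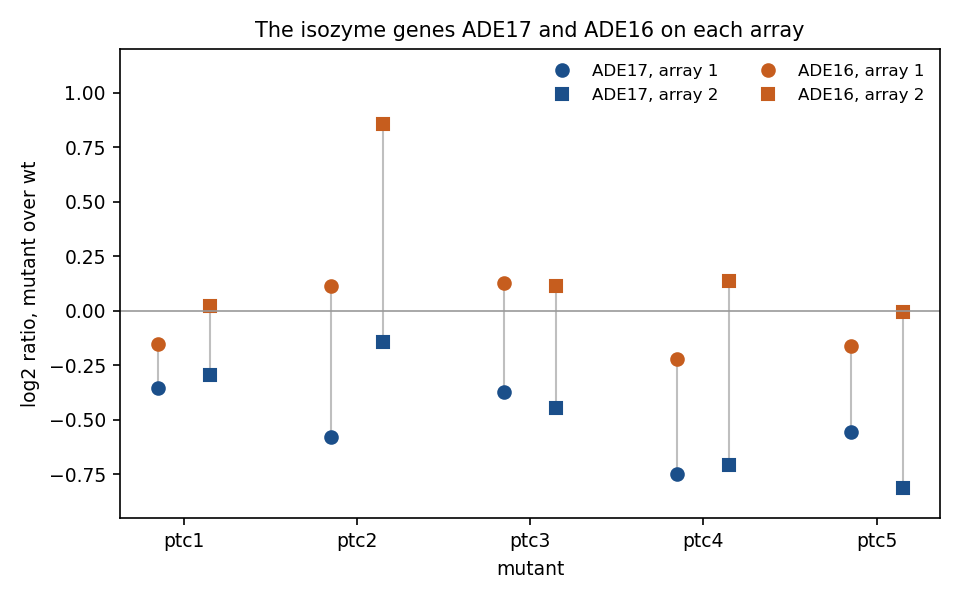
Log2 ratio of mutant over wt of ADE17 and ADE16 on each array, with grey lines joining the 2 genes on the same array. ADE17 lies below ADE16 on all 10 arrays, closest in ptc1 and furthest apart on the second ptc2 array, where the difference is −0.998.

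Each isozyme gene has a copy of the same ribosomal protein gene beside it on the chromosome, RPL15A next to ADE16 and RPL15B next to ADE17. RPL15A had mean log2 ratios of −0.20, 0.38, −0.04, −0.15 and −0.07 in ptc1 to ptc5, and RPL15B had −0.17, 0.40, 0.02, −0.14 and 0.03. These copies are near-identical in sequence, can share hybridisation and count as uncertain; they lay near each other where ADE16 and ADE17 did not. Over all genes directly beside a member, the median log2 ratio was −0.09 for ptc1, 0.16 for ptc2, −0.02 for ptc3, −0.14 for ptc4 and −0.07 for ptc5, with between 12 and 17 of 20 neighbours measured.

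The mutants were next set against each other, which removes the common wt RNA. In a limma fit across the 3606 genes with a value on all arrays, each mutant was compared with the average of the remaining 4 (3 residual degrees of freedom). None of the 10 ADE genes passed an adjusted p of 0.05 in any mutant, while the share of all genes that passed was 3.41% for ptc1, 0% for ptc2, 0.0277% for ptc3, 0% for ptc4 and 0.0277% for ptc5. At an unadjusted p under 0.05, 3 members passed in ptc2 and 0 in the other mutants, beside 414 of all genes in ptc2. For ptc4 the unadjusted threshold was passed by 5 of all genes and for ptc5 by 85. A comparison of ptc4 and ptc5 together with the other mutants was not made.

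A further limma fit asked which genes differed from wt in the 5 mutants as a set, taking the spread between mutants as error; it leaves out the spread of the wt extract. Of all 3606 genes 0.194% were called and 0.166% were called lower. The fit is used below for genes outside the ADE set only, because the same log ratios chose the ADE genes. As a description, the means over the mutants were lowest for ADE1, at −0.51, and ADE17, at −0.50. With each array as a sample and a replicate block that pairs arrays by number, which counts technical repeats as samples, 514 genes were called.

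Genes that feed the pathway were examined in lists drawn up by function with earlier results known. The glycine cleavage and folate genes include those that Bas1 and Pho2 also activate. MTD1, the cytosolic methylenetetrahydrofolate dehydrogenase, had log2 ratios of −0.41 and −0.39 in ptc1, −0.70 and −0.39 in ptc2, −0.64 and −0.43 in ptc3, −0.81 and −0.84 in ptc4, and −0.60 and −0.81 in ptc5. It was below wt on 10 of 10 arrays. In the fit of the 5 mutants as a set its mean lay below wt by 0.60 ± 0.07 on the log2 scale (SE, limma, adjusted p = 0.033). That p leaves out the spread of the shared wt extract, and a deviation of that extract cannot be told apart. The adjusted p ran from 0.00018, with arrays counted as samples, to 0.27 over 12 alternatives, passing in 8. It was 0.21 without ptc2, 0.27 without ptc4 and 0.21 without ptc5, and 0.054 when genes with missing spots were added.

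Subunits of the glycine cleavage complex were below wt in ptc2 to ptc5, except LPD1, for the L protein shared with other dehydrogenases, whose means lay between −0.31 and 0.06. GCV3, for its lipoyl-carrying H protein, was at −0.18 and −0.26 in ptc1, −0.59 and −0.81 in ptc2, −0.45 and −0.50 in ptc3, −0.45 and −0.80 in ptc4, and −0.27 and −0.63 in ptc5. Its mean lay below wt by 0.49 ± 0.07 in the mutants as a set (SE, limma, adjusted p = 0.048), with the same limit of the wt extract. GCV3 was below wt on 10 of 10 arrays. The adjusted p ran from 0.00034 to 0.30 over 12 alternatives, and the threshold was passed in 6. Without ptc2, ptc3, ptc4 or ptc5 it was 0.21, 0.071, 0.30 and 0.23, and it was 0.053 with centred arrays and 0.080 with the added genes.

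GCV2, the glycine decarboxylase subunit, had values of −1.09 and −1.03 in ptc2, −0.96 and −0.62 in ptc3 and −0.88 and −1.11 in ptc4, but 1 value in ptc5, −0.53, and 1 in ptc1, 0.01, and was not tested. The transferase subunit gene GCV1 had means of −0.50, −0.55, −0.71 and −0.51 in ptc2 to ptc5 and −0.08 in ptc1. In ptc1 the glycine cleavage genes thus lay nearer to wt than the ADE median of −0.31. Of the 9 genes in the list 7 were tested, of which 2 were called lower and 0 higher for the mutants as a set. Of all genes 0.166% were called lower.

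Other folate genes were nearer to wt or above it. ADE3, the trifunctional cytosolic enzyme that makes formyl-tetrahydrofolate for the pathway, had means of −0.02 ± 0.04 for ptc1, 0.39 ± 0.34 for ptc2, −0.02 ± 0.30 for ptc3, −0.10 ± 0.01 for ptc4 and −0.11 ± 0.26 for ptc5. SHM1, the mitochondrial serine hydroxymethyltransferase, was above 0 on every array, with means between 0.09 and 0.71. SHM2, its cytosolic counterpart, had its lowest mean in ptc5, at −0.42 ± 0.23. The list medians were −0.05, −0.16, −0.16, −0.47 and −0.28 in ptc1 to ptc5, and −0.29 in ptc2 with centred arrays. Array medians of the list were −0.02 and −0.11 in ptc1, −0.27 and −0.05 in ptc2, −0.02 and −0.31 in ptc3, −0.28 and −0.68 in ptc4, and −0.26 and −0.44 in ptc5.

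The lists for PRPP synthesis and for the branch from IMP to GMP had medians above wt in ptc2 to ptc5. The PRPP synthase genes, which make the starting substrate, had medians of 0.39 for ptc2, 0.26 for ptc3, 0.20 for ptc4 and 0.33 for ptc5, against −0.13 in ptc1. Their ptc2 median was 0.26 with centred arrays. PRS1 was at 0.62 and 0.48 in ptc2, 0.25 and 0.39 in ptc3, 0.29 and 0.15 in ptc4, and 0.48 and 0.29 in ptc5, but at −0.22 and −0.19 in ptc1. The branch from IMP to GMP, made of 3 IMP dehydrogenase genes and the GMP synthase gene GUA1, had medians of 0.54, 0.19, 0.20 and 0.18 in ptc2 to ptc5 and −0.21 in ptc1. With centred arrays the branch had a ptc2 median of 0.41. Its array medians were 0.09 and 0.30 in ptc3 and 0.30 and 0.04 in ptc5, and 2 of its 4 genes were above 0 on both arrays in ptc4 and in ptc5, where IMD3 was at −0.0095 and −0.0085. For the mutants as a set limma called 0 of the 4 tested PRPP synthase genes, with 3 at an unadjusted p under 0.05, and 0 of the 4 GMP branch genes, with 2. That unadjusted threshold was passed by 850 of all 3606 genes. With the replicate block the limma adjusted p for the mutants as a set was 0.048 for PRS1 and 0.025 for GUA1. For ptc1 against the others it was 0.0072 for PRS1, 0.028 for PRS5 and 0.014 for IMD4. That block counts technical repeats as samples, and called 514 genes for the set and 395 for ptc1. From the 5 mutant means the adjusted p was 0.16 and 0.10 for the set, and 0.067, 0.16 and 0.11 for ptc1. The IMP dehydrogenase genes are close copies of one another, and their values may not be separate.

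GUA1 and AAH1, the adenine deaminase gene of purine salvage, were the genes of these lists called in ptc1. The lowest adjusted p given for each came from the replicate block, which counts technical repeats as samples. GUA1 was at −0.07 and −0.30 in ptc1, against 0.45 and 0.86 in ptc2, 0.65 and 0.41 in ptc3, 0.30 and 0.37 in ptc4, and 0.37 and 0.45 in ptc5. Relative to the average of the remaining mutants, ptc1 was lower by a log2 difference of −0.67 ± 0.15 (SE; limma, adjusted p = 0.037), with adjusted p from 0.0067 to 0.25 over 11 alternatives, 5 of which passed; it was 0.065 without ptc3, 0.072 without ptc4 or ptc5, 0.077 with the added genes, and 0.25 and 0.21 without the first and the second arrays. AAH1 was at −0.27 and −0.22 in ptc1, against 0.25 to 0.59 on the 8 arrays of the others, a difference of −0.65 ± 0.13 (SE; limma, adjusted p = 0.027), with adjusted p from 0.0036 to 0.24 and 6 of 11 alternatives passing, 0.085 without ptc4, 0.064 without ptc5, 0.059 with the added genes, and 0.24 and 0.088 without the first and the second arrays.

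Of all genes tested, 1.69% were called lower in ptc1 against the others. GUA1 was 1 of 4 tested in its list and AAH1 1 of 9 of the salvage list, and neither list had a gene called higher. For each gene both ptc1 arrays lay below every array of the other mutants. Among the ADE genes as deposited, ADE12 also had both ptc1 arrays, at −0.30 and −0.29, below every array of the other mutants. The lowest of those was −0.28 in ptc3. Relative to the array medians this separation was lost, with −0.272 and −0.283 in ptc1 and −0.277 on the first ptc3 array. The pattern was picked after the values were seen, and its share among all genes was not counted. The ADE median of ptc1 lay between those of the other mutants.

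**Figure D4:**
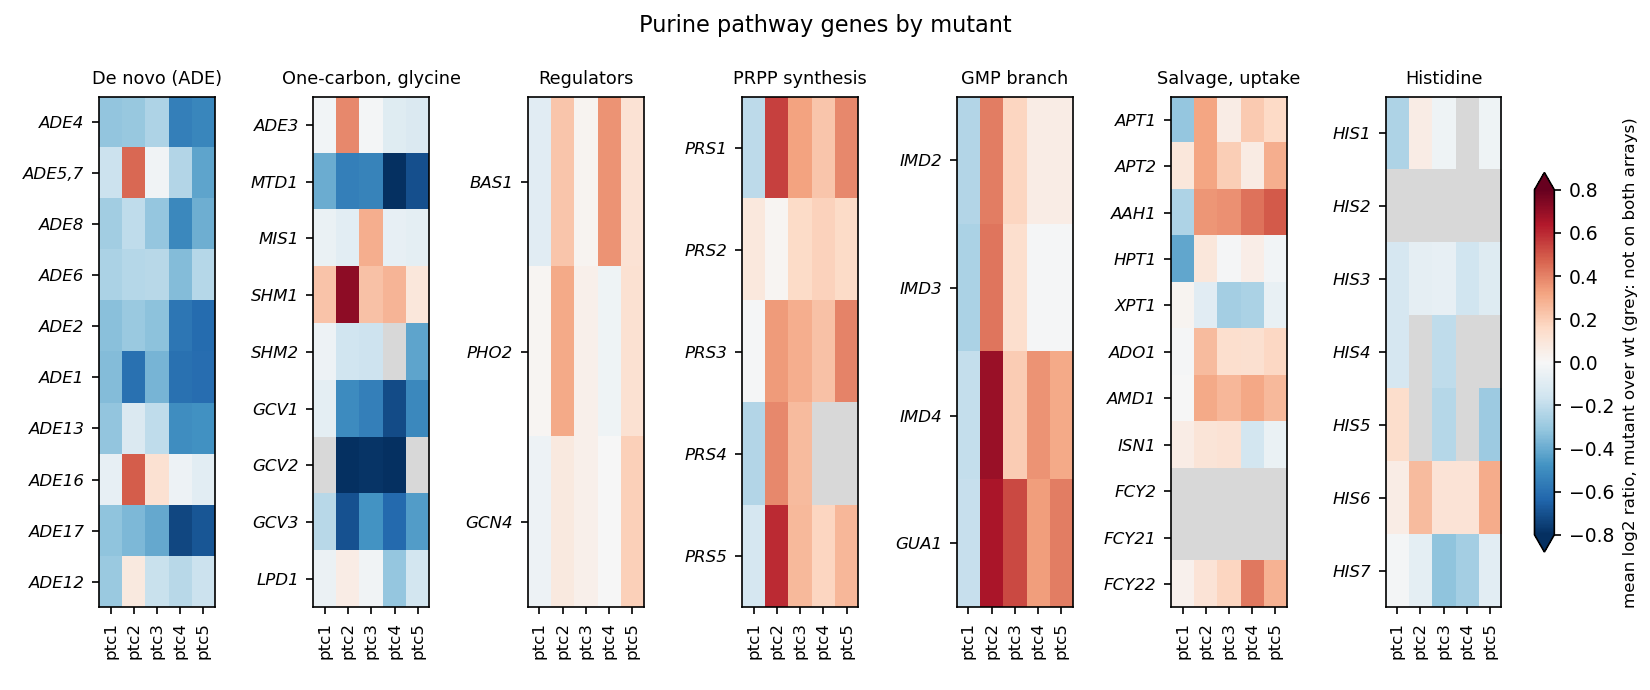
Mean log2 ratio of mutant over wt for the ADE genes and for the other purine pathway lists, 1 row for each gene and 1 column for each mutant, on a colour scale that saturates at 0.8; grey marks genes without a value on both arrays. As deposited, the means of ADE genes are below wt (blue) except ADE16 in ptc2 and ptc3 and ADE5,7 and ADE12 in ptc2. Among the blue ADE cells, the arrays differ in sign for ADE5,7 and ADE6 in ptc3, ADE13 in ptc2, and ADE16 in ptc1 and ptc4. In ptc2 the mean of ADE12 is −0.05 relative to the array medians. No direction can be given for ADE5,7 in ptc2 or ptc3. The measured MTD1 and GCV cells are below wt too. PRPP synthase and GMP branch genes are above wt (red) in ptc2 to ptc5 but for IMD3 in ptc4 and ptc5. In ptc1 most of them are below it.

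Of the regulators, BAS1 had its highest mean in ptc4, with 0.30 and 0.42 on the ptc4 arrays. The ranges overlapped, as the second array gave 0.48 in ptc2 and 0.38 in ptc5. BAS1 had means of −0.09 ± 0.09 for ptc1, 0.22 ± 0.36 for ptc2, 0.02 ± 0.0021 for ptc3, 0.36 ± 0.08 for ptc4 and 0.12 ± 0.36 for ptc5. PHO2 had means between −0.03 and 0.30, and GCN4, a general activator of amino acid biosynthesis genes, between −0.04 and 0.19. None of the 3 passed in limma for the mutants as a set or for ptc1 against the others, and 0 did so at an unadjusted p under 0.05. Of all 3606 genes, 850 passed the unadjusted threshold for the set and 741 for ptc1. For ptc4 against the others limma called no gene. Arrays measure transcript levels, so the activity of these factors was not observed.

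Genes of phosphate uptake and storage, where Pho2 acts with Pho4, lay above wt in ptc2 to ptc5. Their median was 0.06 for ptc1, 0.75 for ptc2, 0.44 for ptc3, 0.29 for ptc4 and 0.59 for ptc5. With centred arrays the ptc2 median was 0.62. PHO84, the high-affinity phosphate transporter, was at 0.13 and −0.04 in ptc1, 1.65 and 2.03 in ptc2, 1.08 and 1.03 in ptc3, 0.70 and 0.78 in ptc4, and 1.31 and 1.47 in ptc5. Of the 9 genes tested limma called 0 for the mutants as a set, with all 9 at an unadjusted p under 0.05, and 0 for ptc1 against the others, with 5. Of all 3606 genes, 850 passed that unadjusted threshold for the set and 741 for ptc1 against the others. From the 5 mutant means PHO84 had a limma adjusted p of 0.068 for the set and 0.062 for ptc1 against the others. With the replicate block these were 0.0039 and 3.8e-05. That block counts technical repeats as samples, and called 514 of all 3606 genes for the set and 395 for ptc1. The ADE medians, lowest in ptc4 and ptc5, and the phosphate medians, highest in ptc2 and ptc5, are set side by side only, since both share the wt RNA.

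Histidine biosynthesis shares an intermediate with purine synthesis. The medians of its measured genes were −0.08 for ptc1, −0.01 for ptc2, −0.14 for ptc3, −0.16 for ptc4 and −0.08 for ptc5, over 3 to 6 of 7 genes. The ptc2 median was −0.13 with centred arrays. In limma 0 of the 3 tested were called for the mutants as a set, with 2 at an unadjusted p under 0.05. That unadjusted threshold was passed by 850 of all 3606 genes. HIS6 was above wt on 8 of 10 arrays with a mean of 0.16. Its limma adjusted p for the set was 0.14 from the 5 mutant means. It was 0.039 with the replicate block, which counts technical repeats as samples. Salvage and uptake genes had medians of −0.0035, 0.25, 0.14, 0.13 and 0.17 in ptc1 to ptc5 over 9 of 11 genes. For these genes the ptc2 median was 0.12 with centred arrays. The array medians of this list differed in sign in ptc1, at 0.09 and −0.20, in ptc4, at 0.32 and −0.03, and in ptc5, at 0.35 and −0.02. With the replicate block AAH1 had a limma adjusted p of 0.040 for the mutants as a set, against 0.14 from the mutant means. For APT1, the adenine phosphoribosyltransferase gene, it was 0.018 in ptc1 against the others, and 0.086 from the mutant means. HPT1, which returns hypoxanthine and guanine to nucleotides, was lowest in ptc1, at −0.34 and −0.49, against −0.16 to 0.13 on the arrays of the other mutants; it was named after its values were seen.

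Genes outside the pathway with the profile most like the ADE median over the 5 mutants were found by the root-mean-square difference of the 5 means. The closest of 3596 genes were COX8 at 0.11, YSA1 at 0.12, SDH1 at 0.12, HXT7 at 0.12, ATP5 at 0.14 and FUB1 at 0.14, where the median gene differed by 0.41. They were picked by their log ratios over wt, so those carry no test. Among the members the same measure was 0.05 for ADE8, ADE13 and ADE4 and 0.10 for ADE2, but 0.34 for ADE5,7 and 0.45 for ADE16, which was further than the median gene. Members helped to set the ADE median, so their closeness to it is no comparison with the outside genes.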

How the data were processed

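The authors deposited 1 table of 10 arrays, whose log ratios, mutant divided by wt, were taken as log2. Per the labels, they left out spots under 120 µm across or under 150 intensity units in Cy3 and Cy5, and made cDNA from 8 µg of total RNA of 30 ml cultures. For the scanner, background correction, normalization and base of the logarithm the sources used here give nothing. The sign had already been turned on dye-swapped arrays of ptc1, ptc3 and ptc5, judged by the deleted genes; for ptc2 1 array and for ptc4 none could be judged in this way, and the direction was taken from the labels. Values were used as deposited. Symbols came from a RefSeq table of assembly R64, in which all 10 members were found; it gave neighbouring genes, and no coordinates are printed because the array's build is not named.

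The 2 arrays of a mutant were averaged. The 5 means were fitted with limma 3.58.1 (R 4.3.3), with Benjamini-Hochberg adjustment over 3606 genes. Residual degrees of freedom were 3 for a mutant against the others and 4 for the set. The code was also run on simulated data with 200 changed genes, for ptc1 and for the set only. That run checks the code and says nothing of the power to call ADE genes in ptc2 to ptc5. Extracts are not stated to come from separate cultures, so a p-value reflects only how far these samples spread, which may be technical. Named genes are the members, PTC1 to PTC5, from each list those called and up to 3 by size, and the 6 nearest profiles; others were named after their values were seen. Members and lists were chosen with earlier results of these data known. Array 2 minus array 1 was correlated across genes for all 10 pairs of mutants, with r from 0.17 to 0.67, and array number coincides with dye, so the numbers pair the arrays. Alternatives were centring, single arrays, other filters and size rules, arrays as samples with and without a block, robust moderation and leaving out a mutant.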

Additional observations from a re-analysis of the deposited data

Results flagged for a closer look

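GUA1 and AAH1 differed between ptc1 and the other 4 mutants in the test of that difference, by −0.67 ± 0.15 and −0.65 ± 0.13 on the log2 scale (SE, limma, adjusted p = 0.037 and 0.027). The threshold was passed in 5 of 11 alternatives for GUA1 and in 6 of 11 for AAH1. Neither gene passed with only the first or only the second arrays. Their ptc1 values were below wt on both arrays and those of every other mutant above it.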

How the results depend on the processing

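Of 150 values of single ADE genes recomputed after centring or from 1 array, 7 had the opposite sign. The ADE median stayed below 0 in all 5 mutants under each alternative. In ptc1 it was −0.29 with centred arrays, −0.27 as a mean over members, and −0.31 to −0.295 on single arrays. In ptc2 it was −0.34 with centred arrays, −0.11 as a mean over members, and −0.32 to −0.05 on single arrays. In ptc3 single arrays gave −0.35 to −0.21. In ptc4 the mean over members was −0.43, and single arrays gave −0.48 to −0.46. The number of members at least 1.5-fold from wt on both arrays became 1, 2 and 1 in ptc2, ptc4 and ptc5 with centring, 0 in ptc4 when the mean had to reach 2-fold, and 1, 2 and 3 with a 1.5-fold mean of the same sign; single arrays gave 1 to 2 in ptc2, 3 in ptc4 and 0 to 4 in ptc5. The 2 on the second ptc2 array, ADE5,7 and ADE16, were above wt, and ADE1 on the first was below it.

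The number of genes called in ptc1 against the other 4 mutants, 123, was 56 when a gene needed only 1 array of each mutant, 6 to 65 on single arrays, and 42 to 154 with a mutant left out. With each array as a sample and a replicate block, which pairs arrays by number, it was 395, and ptc2, ptc3, ptc4 and ptc5 had 53, 21, 2 and 21; without the block ptc2, ptc3 and ptc5 had 4, 5 and 2. In the wider gene set ptc2 had 2, and ptc3 had 1 to 2 with a mutant left out. No ADE gene was called in any of these comparisons between mutants.

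For the mutants as a set, 7 genes were called, 0 in the wider gene set, 332 without and 514 with the replicate block, 194 to 349 on single arrays, and 0 to 706 with a mutant left out, 0 without ptc2, ptc4 or ptc5 and 706 without ptc1. Beyond the genes whose blocked p stands in the report, the block also called PHO11 and PHO12, in both tests. It also called the 6 genes with the nearest profiles for the set. Those 6 were picked by the same log ratios over wt, so their calls are no test. The block, which counts technical repeats as samples, changed no other call of the genes named by rule outside the ADE set. Of 105 medians of the other lists under centring or from 1 array, 9 had the opposite sign. The cause of these changes was not tested. Signal over background was not used, so dim spots could not be told from bright ones.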
